A study of Mus musculus with 8 samples.

Results

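The complement genes described here are 34 genes chosen by name for their function: components of the cascade that starts on antibodies or sugars, components shared by all routes, receptors for the fragments, and regulators. Of the 34, 33 had a row among the 21859 gene rows of the count tables, and 32 passed the filter on low counts together with 15077 genes in all. C4a was not analysed here, and Hc, which encodes C5, was counted too rarely to pass the filter of edgeR.

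RNA was sequenced from whole aortas of 4 ApoE-/- and 4 WT mice, 1 library per mouse. All were male, 40 weeks old and kept on a normal chow diet, on the C57BL/6 background by the study's methods. ApoE-/- mice lack apolipoprotein E, which clears remnant lipoproteins from the blood, and are a standard model of atherosclerosis. The gene is lost from every cell of the body from conception, so the genotype is not a change in the vessel wall alone, and a whole aorta can carry plaque, media, adventitia and attached fat together.

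Complement is a set of plasma and membrane proteins that marks particles for removal, recruits leukocytes and can perforate membranes. C1q, the lectins and properdin start or support it, C4, C2 and C3 are cleaved to build the convertases, and C5 to C9 form the membrane attack complex. Most circulating complement is made by the liver, whereas C1q is made mainly by macrophages and related myeloid cells, and several regulators are made by stromal cells. Because bulk tissue was sequenced, fewer cells of a type and less RNA per cell cannot be told apart in any value given here.

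The labels were checked first on Apoe itself (chromosome 7, 19696109 to 19699188, GRCm38). Its level, given here as CPM (normalised counts scaled to a common library total), was 14.7 to 36.3 CPM in the 4 ApoE-/- aortas and 536 to 857 CPM in the 4 WT aortas. Gene counts totalled 23240995 to 23940156 per library in ApoE-/- and 18375898 to 21664598 in WT, without overlap. The share of read pairs not counted on a gene also separated the genotypes, at 64.4% to 67.7% in ApoE-/- and 69.8% to 72.1% in WT, and its part in the complement levels was not tested. ApoE-/- replicate 1 stood apart from its group: the 7 contractile smooth muscle markers summed to 4710 CPM there against 11943.6 to 19500 CPM in the other ApoE-/- aortas, so calls of complement genes are also given without it. The sum of 7 cardiac muscle markers also separated the genotypes, at 155 to 336 CPM in ApoE-/- and 393 to 660 CPM in WT. Of these, 6 were lower in ApoE-/- without overlap, with log2 fold changes from -1.73 to -4.06, and DESeq2 called 4. Ryr2, the other marker, overlapped at 123 to 311 CPM in ApoE-/- and made up most of that group's sum. The 7 hepatocyte markers summed to 4.84 to 9.07 CPM in ApoE-/- and 4.04 to 6.65 CPM in WT, and Alb, the most abundant liver transcript, averaged 0.170 and 0.457 CPM.

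Transcripts of the C1q chains, of C4b, C3 and clusterin and of the C3a receptor were more abundant in ApoE-/- aortas, and those of the second C5a receptor, C5ar2, were less abundant. None of the proteases, terminal components and membrane regulators was called by any test with all 8 aortas. How firmly this can be stated depends on the test. edgeR's quasi-likelihood test called 0 complement genes at an adjusted p under 0.05, where 0.464% of all genes tested were called (0.371% higher and 0.0929% lower), and the smallest adjusted p of a member was 0.0624. At an unadjusted p under 0.05 it gave 12 higher and 2 lower members, and 7.19% and 4.17% of all genes passed that limit in these directions. DESeq2, the tool the study names, called 7 higher and 1 lower, where 4.29% of the genes it tested were called, 2.84% higher and 1.45% lower. limma-voom called 0 members and 0.192% of all genes, 0.139% higher and 0.0531% lower. The normalised levels of the genotypes did not overlap for 11 higher members and 1 lower member, whereas 8.71% of all genes tested were separated, 5.41% upward and 3.3% downward.

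The sign was positive for 21 of the 32 tested members and negative for 11, and 58% of all genes tested had a positive sign. The median log2 fold change of the members was 0.24, and that of all genes tested was 0.05. Among the 24 tested members that DESeq2 did not call, 14 had a positive sign and the median was 0.09.

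**Figure D1:**
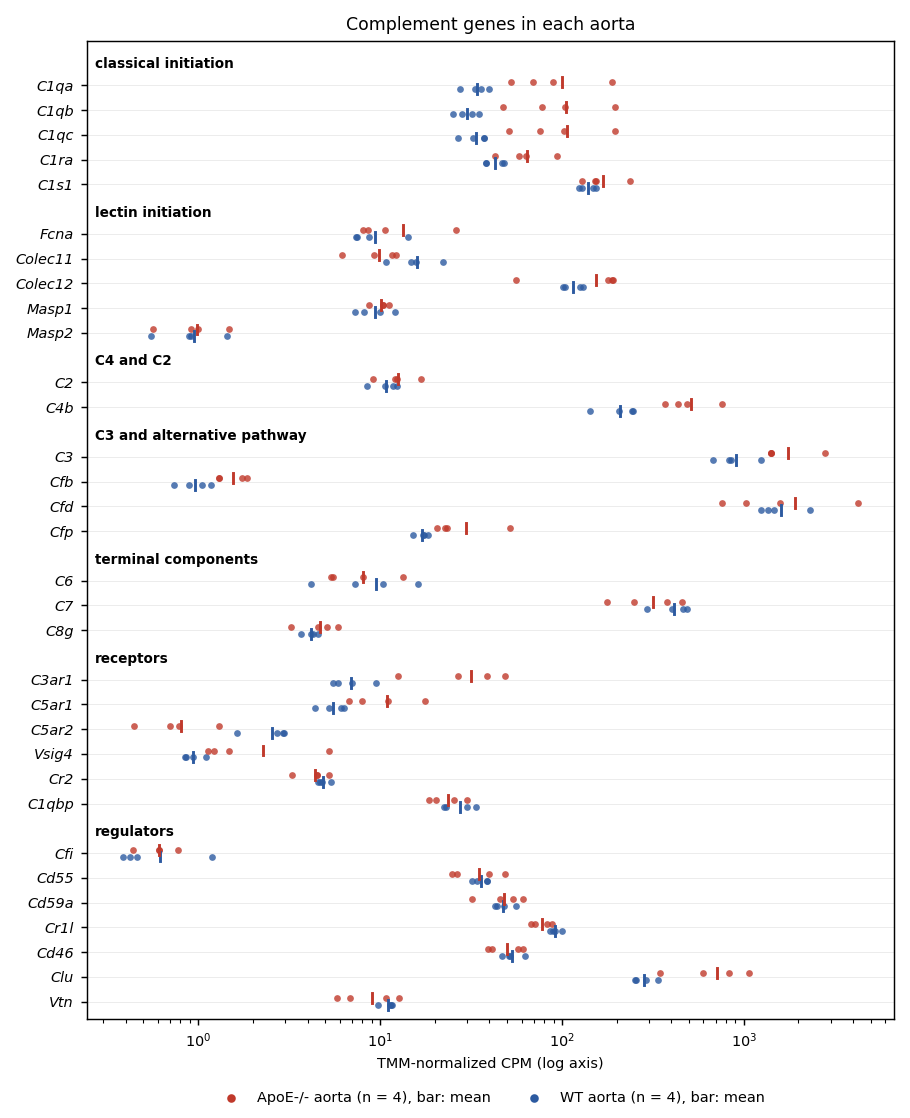
Normalised level (CPM, log axis) of each tested complement gene in each aorta, grouped by role, with ApoE-/- in red, WT in blue and the vertical bars at the group means (n = 4). The red and blue points of the C1q chains, C4b, C3, C3ar1 and Clu do not overlap, and C5ar2 is the 1 gene whose red points all lie below the blue ones.

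**Figure D2:**
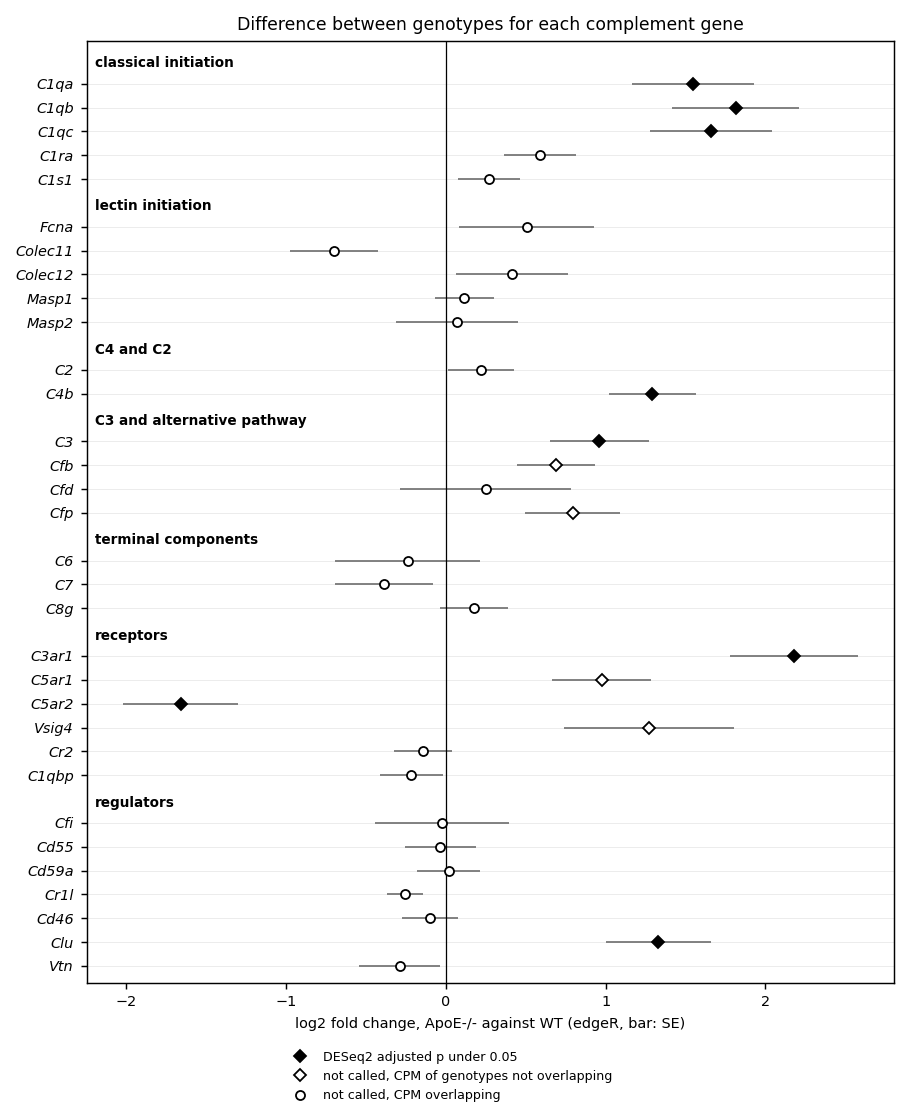
log2 fold change of ApoE-/- against WT for each tested complement gene in edgeR, with the standard error as a bar. Filled diamonds mark the 8 genes that DESeq2 called, open diamonds the 4 others whose levels did not overlap, and circles those that overlapped.

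C1q is the recognition molecule of the classical pathway and is built from 3 chains, A, B and C. Their genes lie side by side on the minus strand of chromosome 4 in the order C1qb (136880129 to 136886187), C1qc (136889804 to 136893065) and C1qa (136895917 to 136898803), with 3.62 kb and 2.85 kb between neighbours. The promoters of C1qb and C1qc are shown because the chains differed together between the genotypes. No window was available for C1qa. Each run is 300 bases on the minus strand of GRCm38.p6 as RefSeq gives it, from 250 bases before the transcript start to 50 after it, with GAGGAA or its reverse complement TTCCTC in capitals. This is the core of the sites that PU.1, a factor of myeloid cells, binds. The windows are chr4:136886151-136886450 for C1qb and chr4:136892865-136893164 for C1qc.

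C1qb: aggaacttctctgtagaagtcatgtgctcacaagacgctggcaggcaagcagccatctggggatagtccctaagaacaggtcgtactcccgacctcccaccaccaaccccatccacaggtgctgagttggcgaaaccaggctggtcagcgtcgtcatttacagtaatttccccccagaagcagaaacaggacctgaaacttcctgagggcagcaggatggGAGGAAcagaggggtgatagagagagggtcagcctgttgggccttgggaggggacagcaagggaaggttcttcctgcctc
C1qc: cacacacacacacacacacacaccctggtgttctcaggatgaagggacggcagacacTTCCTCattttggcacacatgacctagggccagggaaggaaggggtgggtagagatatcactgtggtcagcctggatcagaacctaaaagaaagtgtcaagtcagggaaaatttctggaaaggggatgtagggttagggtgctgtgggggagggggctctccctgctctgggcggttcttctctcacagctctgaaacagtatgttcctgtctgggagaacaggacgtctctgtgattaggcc

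GAGGAA began 30 bases before the start of C1qb, and TTCCTC 193 bases before that of C1qc, where it was part of the longer ACTTCCTC (the reverse complement of GAGGAAGT). Searched on both strands, GAGGAA was present in 28.3% of 32851 promoter windows of the same length and GAGGAAGT in 3.2%, so the short core is common. A match describes letters and is no evidence of binding.

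C1qa stood at 52.4, 69.5, 89.3 and 188 CPM in ApoE-/- replicates 1 to 4 and at 39.8, 33.1, 27.4 and 36.0 CPM in WT replicates 1 to 4. The corresponding levels of C1qb were 47.5, 77.9, 104 and 195 CPM against 32.1, 28.2, 25.3 and 35.0 CPM. For C1qc they were 51.5, 75.8, 103 and 195 CPM against 37.3, 32.6, 27.0 and 37.5 CPM. Every ApoE-/- aorta lay above every WT aorta for each chain, with replicate 4 highest and replicate 1 closest to WT. The log2 fold change in edgeR was 1.55 ± 0.38 (SE) for C1qa, with an adjusted p of 0.121. It was 1.81 ± 0.40 for C1qb (adjusted p = 0.0900) and 1.66 ± 0.38 for C1qc (adjusted p = 0.106). DESeq2 gave adjusted p-values of 0.00339, 4.29e-04 and 0.00129. Without ApoE-/- replicate 1, edgeR called all of the chains, at log2 fold changes of 1.76, 2.06 and 1.89 and adjusted p-values of 0.0275, 0.0126 and 0.0173. Leaving out ApoE-/- replicate 4, the highest aorta, gave smaller log2 fold changes of 1.05, 1.34 and 1.19, and edgeR called none of them (adjusted p-values from 0.104 to 0.110).

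The chains kept nearly the same proportions at each level. C1qa contributed 30.2% to 34.6% of the counts of the 3 chains in ApoE-/- and 33.2% to 36.4% in WT, C1qb 31.4% to 35.1% and 29.4% to 32.2%, and C1qc 33.8% to 34.7% and 33.9% to 34.7%. The exact 95% binomial interval of the C1qb share, which covers counting error only, did not overlap between its highest and lowest aortas. It ran from 33.9% to 36.2% in ApoE-/- replicate 3 and from 27.6% to 31.3% in WT replicate 1. It did overlap between ApoE-/- replicate 1 (29.9% to 32.9%) and WT replicate 4 (30.3% to 34.2%). Per kilobase of exon, the mean level in WT was 32.8 RPKM for C1qa, 27.7 for C1qb and 17.4 for C1qc, where RPKM is CPM divided by exon length in kilobases.

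C1r and C1s are the proteases that C1q carries. C1ra ranged from 43.0 to 93.5 CPM in ApoE-/- and from 38.1 to 48.1 CPM in WT, a log2 fold change of 0.59 ± 0.23 (edgeR adjusted p = 0.353, DESeq2 0.259). C1s1 ranged from 129 to 236 CPM and from 125 to 154 CPM, with a log2 fold change of 0.27 ± 0.19. Both overlapped between genotypes, and their differences were smaller than those of the C1q chains. C1ra and C1s1 each have a close copy in the genome, so pairs that fit both copies may have been left out of their counts.

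The lectin route starts on sugars through ficolins and soluble collectins, which carry the MASP proteases. None of the 5 members grouped under it was called by edgeR or DESeq2 in all 8 aortas. Colec11, a soluble collectin, was at 6.17 to 12.2 CPM in ApoE-/- and 10.9 to 22.3 CPM in WT, with a log2 fold change of -0.70 ± 0.28 and an edgeR adjusted p of 0.371. Colec12, a membrane collectin and scavenger receptor, was at 56.2 CPM in ApoE-/- replicate 1 and 179 to 192 CPM in the other ApoE-/- aortas, whereas WT ranged from 102 to 130 CPM. Its log2 fold change was 0.42 ± 0.35 with all aortas (adjusted p = 0.775) and 0.70 ± 0.12 without replicate 1 (edgeR adjusted p = 0.0197). Fcna, a ficolin, overlapped between the genotypes and reached 26.3 CPM in ApoE-/- replicate 4. Masp1 and Masp2 had log2 fold changes of 0.12 ± 0.18 and 0.07 ± 0.38. Masp2 was counted 12 to 34 times per library, and its exons overlap those of Tardbp on the other strand.

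C4 is the first substrate of the classical and lectin proteases. C4b was at 485, 370, 436 and 762 CPM in the ApoE-/- aortas and at 245, 207, 144 and 243 CPM in the WT aortas. Each ApoE-/- value was above each WT value, and replicate 1 was not the lowest here. The log2 fold change was 1.29 ± 0.27 with an edgeR adjusted p of 0.0792 and a DESeq2 adjusted p of 3.30e-04. Without ApoE-/- replicate 1 it was 1.32 and edgeR called it (adjusted p = 0.0487). Leaving out ApoE-/- replicate 4, the highest aorta, gave 1.04 ± 0.21, which edgeR did not call (adjusted p = 0.115). C4b (chromosome 17, 34728380 to 34743882) has a near-identical neighbour in C4a, so its counts can miss pairs that fit both genes. C2, which forms the C3 convertase with C4b, ranged from 9.15 to 16.9 CPM and from 8.48 to 12.4 CPM, with a log2 fold change of 0.22 ± 0.21.

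C3 is the central component on which all routes meet, and Cfb, Cfd and Cfp (factor B, factor D and properdin) build and hold the alternative convertase. C3 was at 1420.25, 1406, 1408 and 2787 CPM in ApoE-/- and at 828, 846, 681 and 1249 CPM in WT. The groups did not overlap, 3 ApoE-/- aortas were nearly equal and the fourth was far above them. The log2 fold change was 0.96 ± 0.31, with an edgeR adjusted p of 0.241 and a DESeq2 adjusted p of 0.0417. The DESeq2 call was the least stable of its 8: it was made in 3 of the 8 fits that left out 1 aorta, where the adjusted p ranged from 0.0112 to 0.197. Leaving out ApoE-/- replicate 2, ApoE-/- replicate 4, or WT replicate 1, 2 or 3 ended it. With ApoE-/- replicate 1 left out, edgeR gave a log2 fold change of 1.05 ± 0.31 (adjusted p = 0.114), and with replicate 4 left out 0.65 ± 0.23 (adjusted p = 0.305).

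Cfb was at 1.30 to 1.87 CPM in ApoE-/- and 0.734 to 1.17 CPM in WT, without overlap, from 16 to 43 counts per library. Cfp was at 20.6 to 51.8 CPM and 15.2 to 18.5 CPM, also without overlap. Their log2 fold changes were 0.69 ± 0.24 and 0.79 ± 0.30, and neither was called in all 8 aortas (edgeR adjusted p = 0.293 and 0.334). Leaving out ApoE-/- replicate 4 lowered the log2 fold change of Cfp to 0.38 ± 0.11. Cfb (chromosome 17, 34856374 to 34862518) ends 85 bp from C2, and exons of both overlap on the same strand with those of Gm20547, which was counted 0 times in every library, so pairs falling in the shared exons may be missing from Cfb and C2.

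Cfd, also called adipsin, is made in quantity by fat cells. Per kilobase of exon it was the most abundant member in WT, at a mean of 1734 RPKM against 175 for C3, 154 for C7 and 82.6 for Clu. It ranged from 756 to 4232 CPM in ApoE-/- and from 1246 to 2315 CPM in WT, with a log2 fold change of 0.25 ± 0.54 that changed sign when ApoE-/- replicate 4 was left out (-0.51). The sum of the 8 adipocyte markers ran from 2270 to 8120 CPM in ApoE-/- and from 5220 to 10400 CPM in WT. On the log2 scale Cfd lay 2.38 to 3.35 above the mean of these markers in ApoE-/- and 1.6 to 2.49 above it in WT. The part that attached fat plays in the Cfd level was not tested.

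None of the terminal components that assemble the membrane attack complex was called. Hc had 2 to 8 counts in the ApoE-/- libraries and 0 to 6 in the WT libraries, or 0.0812 to 0.347 CPM and 0 to 0.332 CPM, where 3 counts correspond to 0.122 to 0.166 CPM. DESeq2, which filters genes by its own rule, did not call it (log2 fold change 1.16 ± 1.29, adjusted p = 0.883). What difference in Hc could be detected at this depth was not tested. C6 ranged from 5.38 to 13.4 CPM in ApoE-/- and from 4.18 to 16.3 CPM in WT. C7, the abundant one, ranged from 178 to 455 CPM and from 293 to 489 CPM. C8g, the small subunit of C8, ranged from 3.22 to 5.90 CPM and from 3.70 to 4.54 CPM. The log2 fold changes were -0.24 ± 0.45, -0.39 ± 0.31 and 0.18 ± 0.21, and the genotypes overlapped for each gene.

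Receptors gave the largest differences in both directions. C3ar1 binds the anaphylatoxin C3a, C5ar1 binds C5a and signals through G proteins, and C5ar2 binds C5a without coupling to them. C5ar2 (16234585 to 16244154) and C5ar1 (16246743 to 16259540) are neighbours on the minus strand of chromosome 7, 2.59 kb from each other and 3.45 and 3.44 Mb from Apoe. A sequence difference linked to the altered Apoe locus cannot be told apart here from the loss of apolipoprotein E. Its part in the levels of C5ar1 and C5ar2 was not tested. Their promoters are shown because neighbours with the same ligand had fold changes of opposite sign, together with that of C3ar1, the member with the largest difference. The windows are chr6:122856108-122856407 for C3ar1 and chr7:16259289-16259588 for C5ar1, and chr7:16244105-16244404 and chr7:16242282-16242581 for the 2 starts that RefSeq gives C5ar2. All are on the minus strand of GRCm38.p6 and cover the same 300 bases around the start as above. Capitals mark GAGGAA and, in C3ar1, TGACTCA, a binding site of AP-1.

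C3ar1: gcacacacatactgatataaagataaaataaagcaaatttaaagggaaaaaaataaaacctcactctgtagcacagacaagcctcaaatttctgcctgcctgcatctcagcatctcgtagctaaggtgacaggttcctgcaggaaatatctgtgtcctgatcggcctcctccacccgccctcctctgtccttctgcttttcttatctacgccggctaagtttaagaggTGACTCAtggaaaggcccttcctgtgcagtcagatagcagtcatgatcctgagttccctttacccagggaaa
C5ar1: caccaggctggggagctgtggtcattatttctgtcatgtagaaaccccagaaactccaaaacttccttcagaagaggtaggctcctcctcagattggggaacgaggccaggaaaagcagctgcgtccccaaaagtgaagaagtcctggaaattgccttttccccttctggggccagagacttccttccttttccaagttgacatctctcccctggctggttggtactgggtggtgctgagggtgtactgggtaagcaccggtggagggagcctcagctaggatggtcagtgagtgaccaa
C5ar2 start 1: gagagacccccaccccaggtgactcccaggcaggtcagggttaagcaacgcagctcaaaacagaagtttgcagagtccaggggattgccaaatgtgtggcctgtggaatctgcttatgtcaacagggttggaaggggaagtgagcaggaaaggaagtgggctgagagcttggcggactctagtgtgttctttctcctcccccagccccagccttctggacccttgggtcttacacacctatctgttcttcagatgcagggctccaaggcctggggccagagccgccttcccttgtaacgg
C5ar2 start 2: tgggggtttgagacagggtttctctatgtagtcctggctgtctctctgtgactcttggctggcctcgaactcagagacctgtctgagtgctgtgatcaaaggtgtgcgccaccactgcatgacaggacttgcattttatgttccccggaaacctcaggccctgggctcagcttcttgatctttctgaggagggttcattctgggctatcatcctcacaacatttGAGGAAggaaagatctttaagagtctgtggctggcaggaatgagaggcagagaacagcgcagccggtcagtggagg

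TGACTCA began 22 bases before the start of C3ar1 and was present in 5.2% of all windows. GAGGAA began 26 bases before the second start of C5ar2 and was not among the letters of the C5ar1 window or of the first C5ar2 window. Of the 6 motifs searched, C5ar1 held CCAAT, as ATTGG 158 bases before its start, and C3ar1 also held TATAA, 235 bases before its start. CCAAT was present in 37.4% and TATAA in 24.9% of all windows. TTCCNGGAA (1.15% of windows), the pattern that STAT factors bind, was found in none of the 6 windows printed.

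C3ar1 was at 12.6, 26.7, 38.6 and 48.4 CPM in ApoE-/- and at 9.45, 5.85, 5.54 and 7.04 CPM in WT. The groups did not overlap, and replicate 1 of ApoE-/- came near the highest WT aorta. The log2 fold change of 2.18 ± 0.40 was the largest among the members, with an edgeR adjusted p of 0.0624 and a DESeq2 adjusted p of 1.34e-05. Without ApoE-/- replicate 1 it was 2.44 ± 0.25, and edgeR called it (adjusted p = 0.00621). Leaving out ApoE-/- replicate 4, the highest aorta, gave 1.895 ± 0.38, which edgeR did not call (adjusted p = 0.110).

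C5ar1 was at 6.78, 7.96, 11.1 and 17.8 CPM in ApoE-/- and at 6.38, 5.24, 4.38 and 6.13 CPM in WT. Its groups were separated by a narrow margin, and neither edgeR nor DESeq2 called the difference (log2 fold change 0.98 ± 0.31, adjusted p = 0.236 and 0.0799). Without ApoE-/- replicate 1, DESeq2 called it (adjusted p = 0.00404) and edgeR did not (0.0647). Leaving out ApoE-/- replicate 4 gave a log2 fold change of 0.64 ± 0.22.

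C5ar2 went the other way. It was at 0.446, 0.787, 0.697 and 1.30 CPM in ApoE-/- and at 2.71, 1.64, 2.94 and 2.97 CPM in WT. These levels rest on 11, 18, 16 and 30 counts in the ApoE-/- libraries and on 59, 35, 53 and 62 counts in the WT libraries, so that every ApoE-/- library had fewer C5ar2 counts than every WT library although it had more counts on genes in all. The log2 fold change was -1.66 ± 0.36 with an edgeR adjusted p of 0.0877 and a DESeq2 adjusted p of 0.00154. DESeq2 called it in all 8 fits that left out 1 aorta (adjusted p from 7.55e-05 to 0.0307), and edgeR in none of them (0.0546 to 0.258). Its log2 fold change without ApoE-/- replicate 1 was -1.46 ± 0.33. An annotated small nuclear RNA gene of 127 bp lies within a C5ar2 exon on the same strand and had no row of its own.

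Vsig4, a macrophage receptor for C3b, was at 1.14 to 1.48 CPM in ApoE-/- replicates 1 to 3, at 5.25 CPM in replicate 4 and at 0.843 to 1.10 CPM in WT. The genotypes did not overlap, but the log2 fold change of 1.27 ± 0.53 was not called (edgeR adjusted p = 0.403), and without replicate 4 it was 0.45. Cr2, which encodes complement receptors of B cells and follicular dendritic cells, and C1qbp, a mostly mitochondrial protein that can bind C1q, overlapped, with log2 fold changes of -0.14 ± 0.18 and -0.21 ± 0.20.

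Regulators on the cell membrane gave small differences that no test called. Cd55 speeds the decay of convertases, Cd46 and Cr1l (Crry in mice) serve as cofactors for cutting C3b and C4b, and Cd59a blocks the membrane attack complex. Their log2 fold changes were -0.03 ± 0.22, -0.10 ± 0.17, -0.25 ± 0.11 and 0.02 ± 0.20, and the genotypes overlapped for each. Cr1l was at 67.6 to 88.2 CPM in ApoE-/- and at 86.4 to 100.3 CPM in WT. Cfi, the protease that cuts C3b, was counted 7 to 25 times per library and gave -0.02 ± 0.42. Vtn, whose product vitronectin binds the assembling attack complex in plasma, gave -0.29 ± 0.25. Cd55 and Cd59a have close copies, Cd55b and Cd59b, and Cd46 exons overlap a gene on the other strand.

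Clu was the exception among regulators. Its product clusterin is a secreted chaperone that keeps the attack complex from inserting into membranes and that also travels on lipoproteins. Clu was at 346, 601, 1076 and 835 CPM in ApoE-/- and at 253, 288, 339 and 256 CPM in WT. The lowest ApoE-/- aorta, replicate 1, lay just above the highest WT aorta, and the other 3 lay well above it. The log2 fold change was 1.33 ± 0.33 with an edgeR adjusted p of 0.121 and a DESeq2 adjusted p of 0.00387. It was 1.56 ± 0.21 without ApoE-/- replicate 1, and edgeR then called it (adjusted p = 0.0105). Leaving out ApoE-/- replicate 3, the highest aorta, gave 1.065 ± 0.29, which edgeR did not call (adjusted p = 0.243).

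Leaving out libraries showed how these calls depend on single aortas. Without ApoE-/- replicate 1, edgeR called 7 members, all higher (C1qa, C1qb, C1qc, C3ar1, C4b, Clu and Colec12), where 3.91% of all genes were called, 2.75% higher and 1.16% lower. Without any other single aorta it called 0 members. DESeq2 called 7 to 12 members when 1 aorta was left out, and C1qa, C1qb, C1qc, C3ar1, C4b, Clu and C5ar2 were called in each of the 8 fits. Its 12 calls came without ApoE-/- replicate 1, where 9.19% of all genes it tested were called, against 2.77% to 4.14% without any other aorta. They included Cfp, Colec12, C5ar1 and C1ra.

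**Figure D3:**
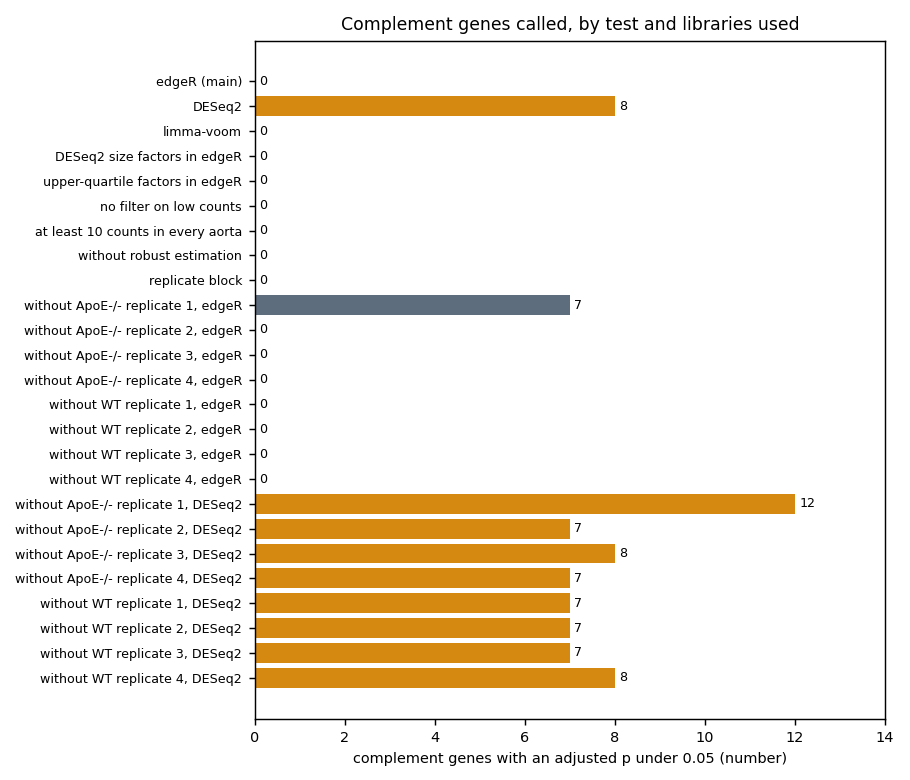
Number of complement genes with an adjusted p under 0.05 for each test, normalization, filter and set of libraries, with edgeR and limma-voom in grey and DESeq2 in orange. With edgeR the bar leaves 0 only without ApoE-/- replicate 1 (7 genes), whereas every DESeq2 fit shows 7 to 12.

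The macrophage markers differed in the same direction as the C1q chains. Of the 12 markers, 10 did not overlap between genotypes and were higher in ApoE-/-, edgeR called 3 (Fcgr1, Trem2 and Mpeg1) and DESeq2 called 7 (these with Adgre1, Cd68, Lyz2 and Tyrobp). Their summed level was 533, 1032, 1236 and 2207 CPM in the ApoE-/- aortas and 440 to 537 CPM in the WT aortas (two-sided exact permutation test over 70 assignments, p = 0.0571). The aorta with the highest sum, ApoE-/- replicate 4, had the highest C1qa, C1qb, C1qc, C3, C4b, C3ar1 and C5ar1. The aorta with the lowest ApoE-/- sum, replicate 1, had the lowest C1q, C3ar1, C5ar1 and Clu of that group. Clu was highest in replicate 3 instead (1076 CPM against 835 CPM in replicate 4). C4b and C3 were not lowest in replicate 1, at 485 and 1420.25 CPM there against 370 and 1406 CPM in replicate 2. The markers Mertk and Cd163 had log2 fold changes of 0.20 and 0.01.

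Set against the mean log2 CPM of the 12 macrophage markers in the same aorta, the C1q chains showed almost no difference between genotypes. The level of C1qa relative to this mean was 0.83 ± 0.18 in ApoE-/- and 0.95 ± 0.07 in WT (log2, SD, n = 4), a difference of -0.12. C1qb and C1qc differed by 0.12 and -0.02. The relative levels of C4b, Clu and C3 differed by -0.24, -0.29 and -0.58, that of C3ar1 by 0.52, and the genotypes overlapped for all of them. Because the marker mean itself was 1.51 higher in ApoE-/-, a gene with equal CPM in both genotypes has a relative difference of -1.51, and 20 of the 32 tested members (62.5%) and 69% of all genes tested were lower without overlap on this scale. C5ar1 was among them at -0.63, and C5ar2 at -3.12. With Csf1r alone as the reference, which differed less (log2 fold change 0.86), C1qa, C1qb and C1qc were 0.61, 0.86 and 0.72 higher and C3ar1 was 1.26 higher, so these values depend on the marker chosen. What part macrophage number plays in the levels was not tested.

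**Figure D4:**
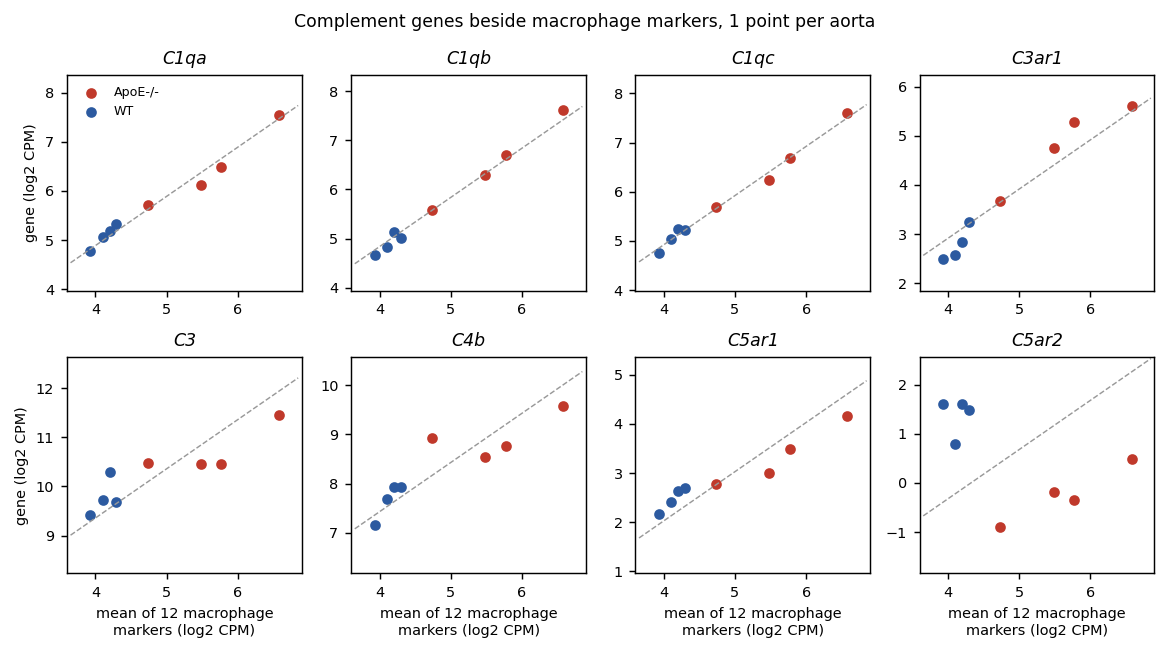
log2 CPM of 8 complement genes (vertical) against the mean log2 CPM of 12 macrophage markers (horizontal), 1 point per aorta, with ApoE-/- in red and WT in blue. The dashed line has a slope of 1 and passes through the mean of the 8 points. The C1q chains lie along it, and the ApoE-/- points of C5ar2 lie below the WT points although their marker mean is higher.

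The markers of every cell type were read with all 8 aortas only. Neutrophil markers were low and their sums did not overlap, at 2.1 to 8.03 CPM in ApoE-/- and 0.814 to 1.15 CPM in WT, with Ly6g at 0.0210 and 0.0117 CPM on average. DESeq2 called 2 of these 5 markers higher, S100a8 (adjusted p = 0.0438) and S100a9 (adjusted p = 0.00122), and edgeR called none. Of 8 fibroblast markers, 2 (Col3a1 and Lum) were higher without overlap and called by DESeq2, and the list's sum overlapped (4490 to 11900 and 4510 to 5120 CPM). Of 7 endothelial markers, Cdh5, Kdr and Eng were lower without overlap and called by DESeq2, and their sum also overlapped. B cell markers summed to 7.12 to 18.5 CPM and 5.15 to 7.9 CPM, T cell markers to 3.59 to 8.42 CPM and 1.88 to 4.26 CPM, and the 3 mesothelial markers to 1.57 to 5.68 CPM and 3.05 to 30.6 CPM. The sums of these 3 lists overlapped between genotypes, and neither edgeR nor DESeq2 called any of their genes. The part of these cell types, and of the cardiac muscle whose summed marker transcripts were higher in WT, in the complement levels was not tested.

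The rest of the pathway was followed in 24 further complement genes, of which 11 passed the filter. edgeR called 1 of them, higher in ApoE-/-, where 0.371% of all genes tested were called higher. DESeq2 called 3 higher, against 2.84% of the genes it tested, and these 3 encode integrin chains of the complement receptors for iC3b. Itgax, the alpha chain of complement receptor CR4 and also a marker of dendritic cells and foam cells, was at 7.31, 26.2, 45.4 and 55.0 CPM in ApoE-/- and at 1.79, 1.83, 1.16 and 1.34 CPM in WT. All ApoE-/- aortas were far above WT, and the log2 fold change was 4.44 ± 0.61 (edgeR adjusted p = 0.0380). This call was lost when any aorta other than ApoE-/- replicate 1 was left out. Itgam, the alpha chain of CR3, gave 1.58 ± 0.30, and Itgb2, the beta chain they share, gave 1.97 ± 0.39, with edgeR adjusted p-values of 0.0645 and 0.0709 and DESeq2 adjusted p-values of 1.58e-04 and 9.39e-05. edgeR called all 3 chains without ApoE-/- replicate 1. Itgam shares exons on the same strand with Gm49368, so its count is uncertain.

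Serping1, which encodes the C1 inhibitor that blocks C1r, C1s and the MASP proteases, overlapped between genotypes. It was at 253 to 590.5 CPM in ApoE-/- and at 321 to 397 CPM in WT, with a log2 fold change of 0.27 ± 0.25 and an edgeR adjusted p of 0.789. The lowest aorta of all was ApoE-/- replicate 1 and the highest was ApoE-/- replicate 4. C8a, C8b and C9, the other subunits of the attack complex, did not pass the filter of edgeR and averaged at most 0.0834 CPM in either genotype. DESeq2 gave adjusted p-values of 0.892 for C8b and 0.957 for C9 and none for C8a.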

How the data were processed

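Stranded, ribodepleted total RNA libraries (TruSeq) were sequenced as read pairs on an Illumina HiSeq instrument by the authors, 1 library per mouse. The submitters' processing notes name TopHat2, HTSeq and the builds GRCm38 and mm10; versions and annotation are not given in the sources used here. The deposited values are raw counts of read pairs per gene, without normalization. Pairs that HTSeq assigned to no gene, to several genes or to several places (64.4% to 67.7% of each ApoE-/- library and 69.8% to 72.1% of each WT library) were left out of library sizes. Coordinates and exon lengths came from GENCODE M21, in which 21817 of 21859 identifiers were found. Promoters came from RefSeq (GRCm38.p6), which had a window for 25 of 34 members.

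With R 4.3.3, genes were filtered by filterByExpr, scaled by TMM and compared by the quasi-likelihood F test of edgeR 4.0.16 (robust, genotype as the only factor, two-sided), with Benjamini-Hochberg adjustment over all 15077 genes and a threshold of 0.05. CPM used TMM library sizes, and log2 CPM a prior count of 2. Standard errors were derived from the log2 fold change and its F statistic. The edgeR p-values set the genotype difference against the spread between mice within a genotype (4 per genotype), which is moderated across genes. DESeq2 1.42.0, limma-voom (limma 3.58.1), other factors and filters, a replicate block and leaving out each aorta were alternatives, and leaving out each aorta in DESeq2 was added after seeing the data. Scripts were tested on simulated data. Figures were drawn with matplotlib 3.10.9 in Python 3.11.15.

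The members were chosen by function, and the members, lists, tests and naming rule were set with earlier results of these data known. All 34 members were to be named, with full statistics for those called by edgeR or DESeq2 and for C1qa and C3, the other complement genes by counts with values for those called and for Serping1, and Apoe as the check of the labels. Values of 1 further gene under this rule are not reported here. Relations between libraries of a genotype were checked with chi-square statistics per degree of freedom, which were 26.6 to 77 between WT libraries, 45 to 189 between ApoE-/- replicates 2 to 4 and 250 to 353 between these and ApoE-/- replicate 1, so no library duplicated another.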

Additional observations from a re-analysis of the deposited data

Results flagged for a closer look

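In 64 groups of 4 values (32 genes in 2 genotypes), 7 had 1 aorta so far from the other 3 that its gap to the nearest, divided by the range of the group, exceeded Dixon's 95% limit. For independent, normally distributed groups, chance alone flags about 1 in 20, or 3.2 here. These groups are CPM values of genes from the same aortas, so the rate by chance in these data is not known. In ApoE-/- replicate 4, C3 was at 2787 CPM with the nearest aorta at 1420.25 (gap over range 0.99), Vsig4 at 5.25 with the nearest at 1.48 (0.916), Cfp at 51.8 with the nearest at 23.5 (0.907) and Fcna at 26.3 with the nearest at 10.6 (0.858). In ApoE-/- replicate 1, Colec12 was at 56.2 CPM with the nearest aorta at 179 (0.907). In WT, Cfi was at 1.20 CPM in replicate 4 with the nearest aorta at 0.459 (0.912), from 25 and 10 counts. Vtn was at 9.70 CPM in WT replicate 3 with the nearest aorta at 11.4 (0.886), a small difference in a group with little spread.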

How the results depend on the processing

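With edgeR, 0 members were called in either direction under DESeq2's size factors, upper-quartile factors, 2 other filters on low counts or no robust estimation. DESeq2 called 7 members higher and 1 lower, 721 genes in all and 3 other complement genes, against 70 genes in all and 1 other complement gene with edgeR. limma-voom called 29 genes in all, 0 members and 0 other complement genes. Leaving out 1 aorta at a time, in edgeR or in DESeq2, gave 0 to 11 members higher, 0 to 1 lower, 0 to 1548 genes in all and 0 to 5 other complement genes. The 1548 came from DESeq2 without ApoE-/- replicate 1, where edgeR called 593, and edgeR called at most 17 without any other aorta. The cause was not tested.

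The sign reversed under some alternative for 8 members, none of them called by edgeR or DESeq2 with all 8 aortas. Among alternatives with all 8 aortas, limma-voom gave log2 fold changes of -0.035 for Cfd, 0.10 for Cfi and -0.015 for Cd59a, and upper-quartile factors gave -0.022 for Cd59a. With 1 aorta left out, the log2 fold change ranged from -0.065 to 0.77 for Fcna, from -0.20 to 0.34 for Masp2, from -0.53 to 0.52 for Cfd, from -0.61 to 0.15 for C6, from -0.20 to 0.51 for Cfi, from -0.26 to 0.10 for Cd55, from -0.12 to 0.17 for Cd59a and from -0.22 to 0.00300 for Cd46. Relative to Csf1r alone in place of the mean of the macrophage markers, C1qa, C1qc, C3, C4b and Clu turned from lower to higher in ApoE-/- (0.61, 0.72, 0.15, 0.49 and 0.45, log2), whereas C5ar2 was lower by 2.39 on the log2 scale.

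Mice of the same replicate number are different animals. Deviations of same-numbered aortas correlated at -0.448 to 0.316, and 2 of 4 pairs exceeded 0.1. Pairs with different numbers ranged from -0.666 to 0.673. Because the same-numbered pairs lay within that range, these values cannot decide whether same-numbered aortas shared handling. With the replicate block, edgeR called 2 genes in all, 0 members and 0 other complement genes, and the log2 fold change was -0.037 for Cfd, 0.087 for Cfi and -0.014 for Cd59a. Depth limits the members with few counts, C5ar2, Cfb, Cfi, Masp2, Vsig4 and Hc.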
